A study of Homo sapiens with 4 samples.

Results

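The 48 genes described here encode the machinery that selects, loads, starts and copies DNA replication origins and that carries the fork forward. Gene positions are on GRCh38 as in the count data. The genes were chosen by name among the 59050 genes of the count data, and all 48 were measured and passed the filter on low counts, which left 16516 genes. They comprise the origin recognition complex (ORC), the licensing factors, the MCM2 to MCM7 helicase, the proteins that switch the helicase on, the replicative polymerases, the sliding clamp with its loader, the single-strand binding protein RPA and the enzymes that mature Okazaki fragments. RNA was sequenced from RCC4, an established human clear cell renal carcinoma line, infected with a lentivirus that carries a doxycycline-inducible hairpin against PML (shPML, from the hairpin that the study calls shPML#1) or a scrambled hairpin (shCtrl). Both groups received doxycycline at 100 ng/ml over 96 h and were puromycin-selected bulk populations rather than clones, so that the labels distinguish them by the hairpin. There were 2 libraries per group, from 2 experiments with separate infections, and the replicate number of each library was read as its experiment. A single hairpin stands for the knockdown in these libraries.

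In G1 phase, ORC, CDC6 and CDT1 load the MCM2 to MCM7 ring on origins, which licenses them for a single round of copying. In S phase, the DBF4-dependent kinase CDC7 and other factors convert the ring, with CDC45 and GINS, into the active helicase, after which DNA polymerase alpha with its primase starts each strand, and polymerases delta and epsilon extend it on the PCNA clamp. Many of these genes are transcribed in late G1 and S phase under control of E2F factors, and their RNA is therefore widely read as a sign of proliferation.

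Library totals ran from 27781193 to 69870617 counted reads. Levels are given as CPM, the counts of a gene scaled to library size by the TMM method of edgeR. PML itself was at 93.1 and 136 CPM in shCtrl and at 54.9 and 87.6 CPM in shPML of experiments 1 and 2, so that each shPML library held less than its partner (log2 fold change -0.70, standard error 0.11, adjusted p = 4.19e-07 from the quasi-likelihood test of edgeR with the experiment as a block and Benjamini-Hochberg adjustment, the test used throughout). All 7 renal and ccRCC markers looked at (PAX8, PAX2, CA9, NDUFA4L2, VIM, KRT8 and KRT18) were above 1 CPM in every library. They did not move one way. NDUFA4L2 rose (log2 fold change 0.92). CA9 (0.49), VIM (0.48), PAX2 (0.26), PAX8 (0.01), KRT18 (-0.16) and KRT8 (-0.38) were not called. The shPML library of experiment 2 stood apart. Its summed level of 3 leukocyte markers (PTPRC, CD3E and CD14) was 55.4 CPM, against 0.0369 to 0.139 CPM in the other 3 libraries, with CD14 at 42.8 and PTPRC at 12.6 CPM while CD3E was at 0. PECAM1, one of 3 endothelial markers, was at 4.11 CPM there and at most 0.0418 CPM elsewhere. The other endothelial markers were not raised there, with CDH5 at 0 and VWF at 0.255 CPM, against 0.389 CPM of VWF in the shCtrl partner. A further 8 myeloid genes, chosen after the values were seen, summed to 253 CPM in the shPML library of experiment 2. In the other libraries these genes summed to between 0.795 and 2.19 CPM. Their part in the results of experiment 2 was not tested. Values are therefore given for each experiment, and in experiment 1 the 3 leukocyte markers were at 0.0976 CPM or less.

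**Figure D1:**
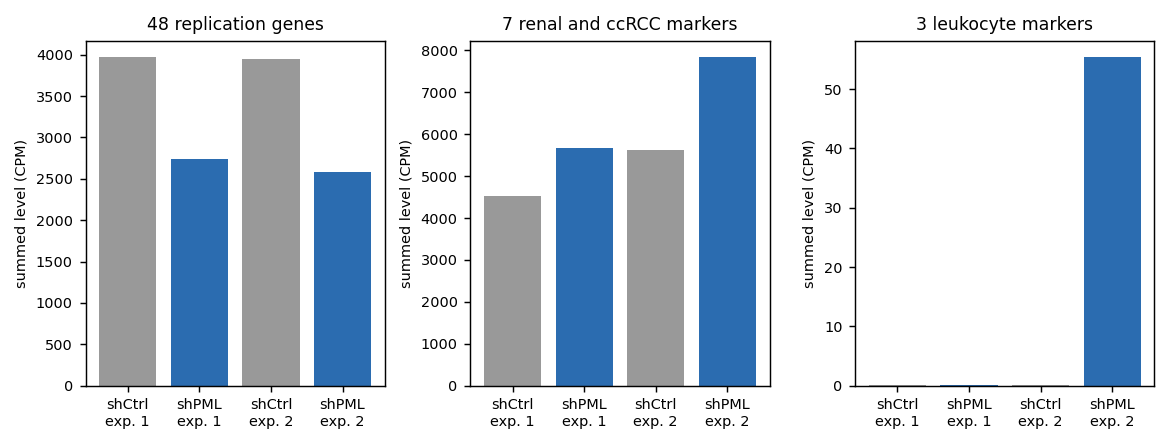
Summed level in CPM of the 48 replication genes, of 7 renal and ccRCC markers and of 3 leukocyte markers in the 4 libraries, 1 bar per library, with shCtrl in grey and shPML in blue. The replication genes were at 3970 and 3942 CPM in shCtrl and at 2740 and 2586 CPM in shPML, the summed renal markers, of which VIM makes up most, were higher in shPML in both experiments, and the leukocyte markers reached 55.4 CPM in the shPML library of experiment 2 alone.

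The replication genes were lower in shPML in both experiments, with few exceptions. Calls required an adjusted p under 0.05 together with a log2 fold change above 0.5 or below -0.5, the limits set in the study's methods. By this rule 31 of the 48 genes fell, 1 rose and 16 were not called. Among all 16516 genes tested, 10.5% fell and 8.57% rose. The median log2 fold change of the 48 genes was -0.71, beside 0.00 over all genes tested. Within the experiments the median was -0.63 in experiment 1 and -0.75 in experiment 2, and 30 and 31 genes had a log2 ratio below -0.5. Of all 16516 genes tested, 2981 and 3407 had such a ratio. In 28 genes the ratio was below -0.5 in both experiments, as it was in 11.8% of all genes tested. Together the 48 genes took 0.4% and 0.384% of the counted reads of the shCtrl libraries and 0.281% and 0.256% of those of the shPML libraries. In RNA from whole cultures, fewer cells in S phase and less RNA of these genes in each cell cannot be told apart.

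**Figure D2:**
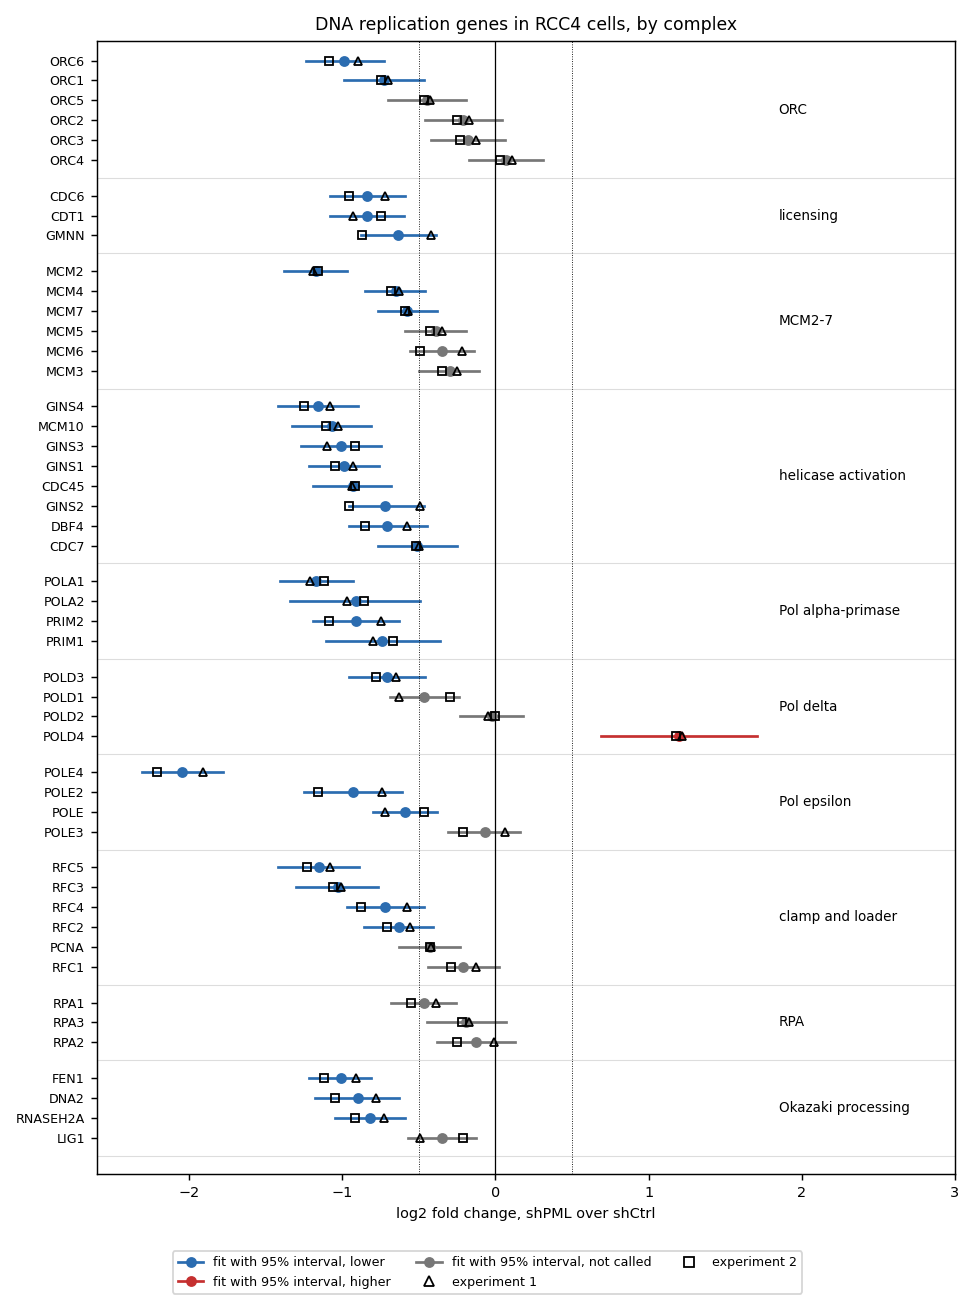
Log2 fold change of shPML over shCtrl (horizontal axis) for the 48 genes, grouped by complex. Filled points with lines are the fit with its 95% interval, in blue for genes that fell, in red for the 1 gene that rose and in grey for genes not called. Open triangles and squares are the log2 ratios within experiments 1 and 2, and dotted lines mark -0.5 and 0.5. All genes of the polymerase alpha-primase, licensing and helicase activation groups have fitted values below -0.5, whereas POLD4 lies at 1.20 and POLE4 at -2.05.

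The fit without the experiment as a block called none of the 48 genes in either direction. In that fit of edgeR 0.333% of all genes tested fell and 0.0787% rose, the adjusted p of the 48 genes ran from 0.052 to 0.967, and 31 of them had an unadjusted p under 0.05, as had 17.9% of all genes tested. In 38 of the 48 genes the shPML values were both lower than either shCtrl value, as in 24.9% of all genes tested. They were both higher in ORC4 (log2 fold change 0.07) and POLD4 (1.20), a pattern that was not counted over all genes tested. DESeq2 called 30 of the 48 genes lower with the block and 24 without it, and it called 9.93% and 6.44% lower of the 13954 genes to which it gave an adjusted p.

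The complexes differed in how many of their genes fell. All 8 genes of helicase activation fell (median on the log2 scale -0.96), as did all 4 of polymerase alpha-primase (median -0.91) and all 3 licensing factors (median -0.84). Of the clamp and its loader 4 of 6 fell (median -0.68), of polymerase epsilon 3 of 4 (median -0.76) and of the Okazaki fragment enzymes 3 of 4 (median -0.86). Among the MCM2 to MCM7 genes 3 of 6 fell (median -0.48), in ORC 2 of 6 (median -0.33), in polymerase delta 1 of 4 (median -0.25) and in RPA 0 of 3 (median -0.19). The subunits of a complex share libraries and are no replicates of it, and the differences between complexes were not tested. Differences between genes of a complex were not tested either. Where intervals of such genes are compared below, the lowest or highest of the complex is among them, picked by these same values.

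The promoters of 4 genes are shown because these genes mark the extremes of the response: MCM2 and POLA1 fell the most after POLE4, and POLD4 is the gene that rose. Each window holds 250 bases before and 50 bases from the start of transcription, 5′ to 3′ on the strand of the gene, from RefSeq (GRCh38.p14). Capitals mark words of the kind that E2F factors are known to bind.
MCM2 promoter, chr3:127598161-127598460, plus strand: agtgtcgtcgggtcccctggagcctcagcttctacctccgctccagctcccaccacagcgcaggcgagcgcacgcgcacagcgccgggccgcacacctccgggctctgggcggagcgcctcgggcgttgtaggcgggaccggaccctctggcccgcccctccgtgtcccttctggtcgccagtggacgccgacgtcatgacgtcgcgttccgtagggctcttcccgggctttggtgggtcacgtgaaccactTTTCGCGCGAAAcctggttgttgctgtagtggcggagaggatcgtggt
POLA1 promoter, chrX:24693668-24693967, plus strand: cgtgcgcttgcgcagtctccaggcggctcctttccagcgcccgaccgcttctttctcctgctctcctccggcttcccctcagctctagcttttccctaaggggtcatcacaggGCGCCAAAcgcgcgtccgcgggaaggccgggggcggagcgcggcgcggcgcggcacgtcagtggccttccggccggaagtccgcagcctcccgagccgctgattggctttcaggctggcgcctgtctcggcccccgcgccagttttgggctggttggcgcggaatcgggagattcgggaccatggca
POLE4 promoter, chr2:74958393-74958692, plus strand: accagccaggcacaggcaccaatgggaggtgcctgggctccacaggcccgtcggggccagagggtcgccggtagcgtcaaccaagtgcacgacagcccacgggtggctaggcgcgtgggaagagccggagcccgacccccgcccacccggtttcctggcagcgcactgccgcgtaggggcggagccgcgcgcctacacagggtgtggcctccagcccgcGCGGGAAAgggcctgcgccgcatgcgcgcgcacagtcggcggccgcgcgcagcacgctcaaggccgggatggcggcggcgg
POLD4 promoter, chr11:67353547-67353846, minus strand: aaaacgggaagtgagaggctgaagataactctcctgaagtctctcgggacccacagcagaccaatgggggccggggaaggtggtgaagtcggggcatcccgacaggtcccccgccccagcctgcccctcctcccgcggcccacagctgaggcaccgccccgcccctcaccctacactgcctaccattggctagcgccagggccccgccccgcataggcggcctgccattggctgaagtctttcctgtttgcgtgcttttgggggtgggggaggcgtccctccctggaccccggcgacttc
The words searched on both strands were TTTCCCGC, TTTGGCGC, TTTCGCGC and TTTGCCGC. In MCM2 a word and its reverse complement overlap at positions 253 and 257 of the window, next to the start. The words of POLA1 and POLE4 begin at positions 114 and 220 and are read on the opposite strand. POLD4 has 2 windows, of which the first listed is shown, and no word was found in either.

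RefSeq windows were matched to 41 of the 48 genes by symbol, not to MCM4, MCM5, GINS4, POLD3, RPA2, RPA3 and DNA2. A word was found in at least 1 window of 20 of these 41 genes (48.8%), of 6.5% of the genes tested that have a window, and in 3.31% of all 35116 windows. It was found in 15 of the 27 genes that fell (55.6%), in 5 of the 13 not called (38.5%) and not in POLD4. Of the 6 genes not called with an adjusted p of 0.05 or more it was found in 1, ORC3 (16.7%). The differences between these shares were not tested. By complex the counts were 3 of 3 for the licensing factors, 4 of 4 for the MCM genes with a window, 4 of 7 for helicase activation, 3 of 4 for polymerase epsilon, 2 of 4 for polymerase alpha-primase, 2 of 6 for the clamp and its loader, 1 of 3 for the Okazaki fragment enzymes, 1 of 6 for ORC, 0 of 3 for polymerase delta and 0 of 1 for RPA. Among the genes that fell, MCM10, CDC45, RFC5 and FEN1 have no word in their windows, and among those not called, MCM3, MCM6, PCNA and LIG1 hold one. A word in a window is a description of the sequence, and binding was not measured.

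ORC is the 6-subunit complex that marks origins. ORC6 (chr16:46689659-46698394), its smallest subunit, was at 38 and 36.5 CPM in shCtrl and at 20.4 and 17.2 CPM in shPML of experiments 1 and 2. Both shPML libraries lay well below the shCtrl pair, at 50.5% of the shCtrl level in the fit (log2 fold change -0.99, standard error 0.13, adjusted p = 4.39e-09, edgeR). ORC1, the subunit whose protein is loaded and removed in each cycle, was at 31.5 and 27.8 CPM in shCtrl and 19.4 and 16.5 CPM in shPML, and it fell by 0.73 on the log2 scale. ORC5 had a log2 fold change of -0.45 (adjusted p = 0.00438, edgeR), short of 0.5 in size. The other 3 subunits had adjusted p-values over 0.2. ORC2 and ORC3 were at -0.21 (95% interval -0.46 to 0.04) and -0.18 (95% interval -0.42 to 0.06). ORC4, an ATP-binding subunit, was at 36.3 and 38.4 CPM in shCtrl and 39 and 39.4 CPM in shPML. Its shPML libraries were the higher ones by a small margin, and the fold change was 0.07 on the log2 scale (95% interval -0.17 to 0.31, adjusted p = 0.725, edgeR). The intervals of ORC6 and ORC1 do not overlap that of ORC4.

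The licensing factors CDC6 and CDT1, which bring the MCM ring to ORC, and GMNN (geminin), the inhibitor of CDT1, all fell. CDT1 was at 43 and 73.4 CPM in shCtrl and at 22.5 and 43.6 CPM in shPML. Its groups overlapped because experiment 2 was higher in both conditions, and within each experiment shPML was lower, with log2 ratios of -0.93 and -0.75 (log2 fold change -0.84, standard error 0.12, adjusted p = 5.65e-08, edgeR). CDC6 fell by 0.84 on the log2 scale as well, from 58.6 and 49.6 CPM to 35.6 and 25.4 CPM. GMNN was at 63.9 and 60.4 CPM in shCtrl and at 47.8 and 33 CPM in shPML. Its fall was smaller in experiment 1 (log2 ratio -0.42) than in experiment 2 (-0.87), and it is the one licensing factor above -0.5 in experiment 1. The ratio of CDT1 to GMNN in length-scaled levels (TPM) went from 0.343 to 0.24 in experiment 1 and from 0.62 to 0.675 in experiment 2, so that the balance of the factor and its inhibitor did not move one way.

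**Figure D3:**
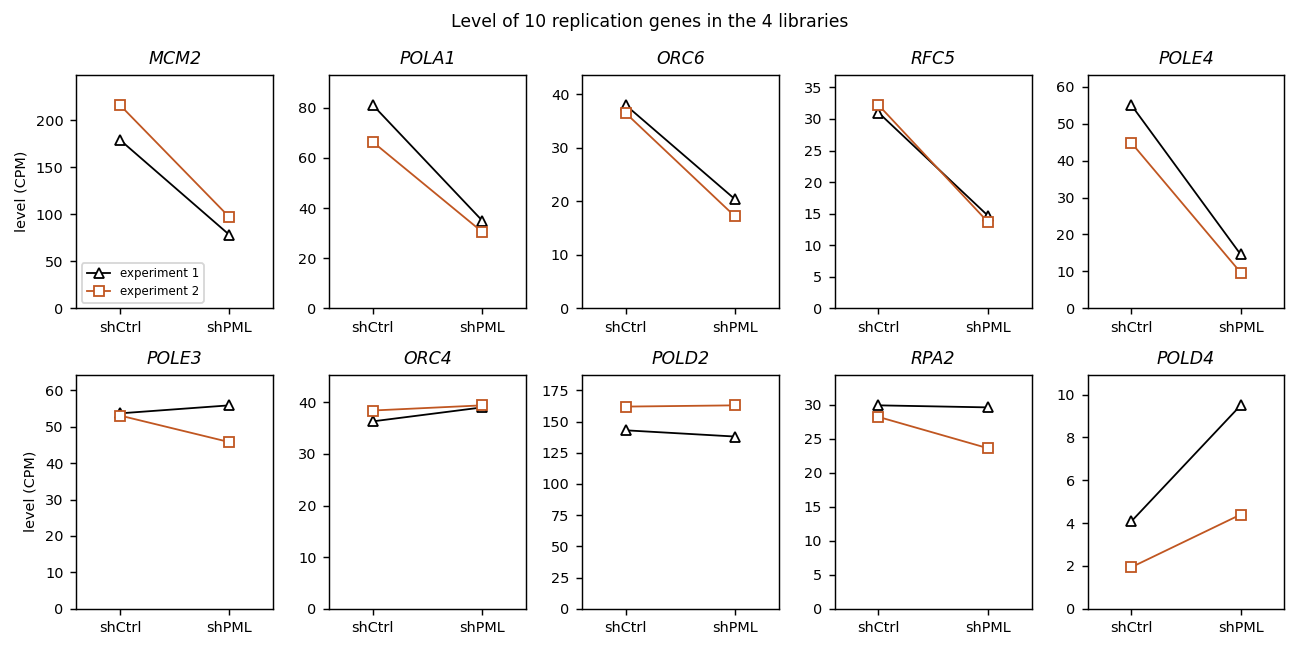
Level in CPM (vertical axes, from 0) of 10 replication genes in shCtrl and shPML, with 1 line per experiment. MCM2, POLA1, ORC6, RFC5 and POLE4 are lower in shPML in both experiments, POLE3, ORC4, POLD2 and RPA2 differ from their partner library by at most 0.25 on the log2 scale, and POLD4 is higher in both experiments.

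Within the MCM2 to MCM7 ring the subunits were uneven. MCM2 (chr3:127598411-127622436) was at 179 and 216 CPM in shCtrl and at 78.2 and 97 CPM in shPML. Both shPML libraries lay far below both shCtrl libraries, and the fit put them at 44.3% of shCtrl (log2 fold change -1.17, standard error 0.10, adjusted p = 2.1e-14, edgeR). MCM4 and MCM7 fell by 0.65 and 0.58 on the log2 scale. MCM3 was at 298 and 239.8 CPM in shCtrl and at 250.1 and 188 CPM in shPML. The groups of MCM3 overlapped, and its log2 fold change of -0.30 (95% interval -0.50 to -0.11, adjusted p = 0.0135, edgeR) was short of the limit, as were those of MCM6 (-0.35) and MCM5 (-0.39). The intervals of these 3 subunits do not overlap that of MCM2, which runs from -1.38 to -0.97. The uneven change altered the make-up of the MCM transcripts. MCM2 made up 13.1% and 15.7% of the summed TPM of MCM2 to MCM7 in shCtrl and 8.07% and 10.7% in shPML, whereas MCM3 went from 23.4% and 18.7% to 27.6% and 22.1%. The share of MCM7 was between 24.1% and 26.1% in all 4 libraries. A gene annotated on the opposite strand, AC023593.1, shares 32.4% of the exon bases of MCM2 and was at 0.296 CPM or less. Of the exon bases of AC023593.1, 40.1% are shared with MCM2. The assignment of reads in shared bases is not known, which limits the level and the share given for MCM2.

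**Figure D4:**
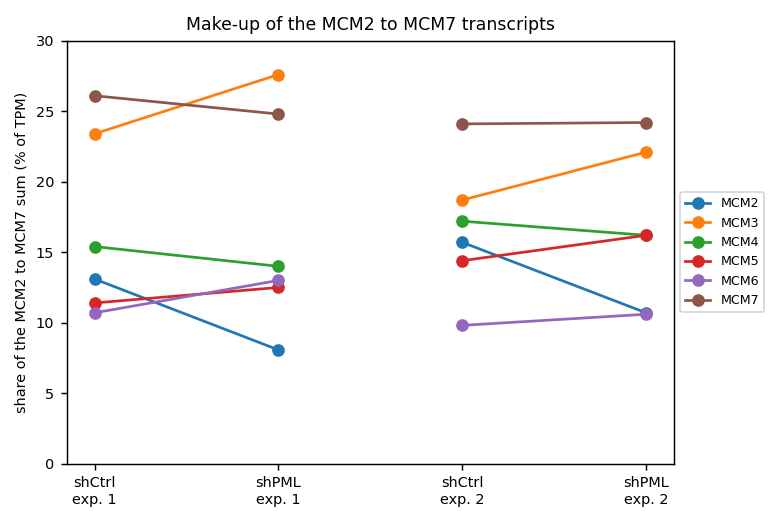
Share of each subunit in the summed TPM of MCM2 to MCM7 (vertical axis, percent) in the 4 libraries, with a line from shCtrl to shPML within each experiment. MCM2 drops from 13.1% to 8.07% in experiment 1 and from 15.7% to 10.7% in experiment 2, and MCM3 is higher in shPML in both.

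All 8 genes for factors that turn the loaded ring into a running helicase fell, with log2 fold changes from -1.16 to -0.51. GINS4 (chr8:41529221-41545030), a subunit of the 4-part GINS complex, was at 32.3 and 33.6 CPM in shCtrl and at 15.3 and 14.1 CPM in shPML. The groups of GINS4 did not overlap (log2 fold change -1.16, standard error 0.13, adjusted p = 1.06e-10, edgeR). GINS3 and GINS1 fell by 1.01 and 0.99 on the log2 scale. GINS2 fell by 0.72, with log2 ratios of -0.49 in experiment 1 and -0.96 in experiment 2. MCM10, a scaffold of the firing origin, went from 33.4 and 30.4 CPM to 16.3 and 14.1 CPM, and CDC45, the partner of MCM and GINS in the helicase, from 36.3 and 34.3 CPM to 18.9 and 18.1 CPM. They were at 47.7% and 52.4% of shCtrl, with log2 fold changes of -1.07 and -0.93. The kinase subunit CDC7 was at 28.4 and 24.4 CPM in shCtrl and at 20.1 and 17.1 CPM in shPML. Its change of -0.51 on the log2 scale (standard error 0.13, adjusted p = 0.00162, edgeR) lies just inside the limit, and the call was lost with DESeq2 and with other scalings or filters, where the value was -0.50 to -0.48. DBF4, its activating subunit, fell by 0.71.

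All 4 subunits of polymerase alpha-primase, which lays down the RNA-DNA primer, fell. POLA1 (chrX:24693919-24996986), the catalytic polymerase subunit, was at 81 and 66.3 CPM in shCtrl and at 35 and 30.5 CPM in shPML. Its shPML libraries were at 44.5% of shCtrl in the fit (log2 fold change -1.17, standard error 0.12, adjusted p = 3.24e-12, edgeR). PRIM1, the catalytic primase subunit, was at 11.4 and 10.4 CPM in shCtrl and at 6.51 and 6.58 CPM in shPML, so that it fell by 0.74 on the log2 scale (standard error 0.19, adjusted p = 0.00144, edgeR). POLA2 and PRIM2, the accessory subunits, both had log2 fold changes of -0.91. POLA2 and PRIM1 rest on 141 to 483 and 181 to 615 counts per library, and 55.8% and 25.4% of their exon bases are shared with annotated genes on the same strand (AP000944.2 and AC117378.1). How the counting assigned reads in those bases is not known, which limits the level given for both genes.

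Polymerase delta, which extends the lagging strand, moved in 3 ways. POLD3, an accessory subunit, was at 45.7 and 37 CPM in shCtrl and at 29.2 and 21.5 CPM in shPML and fell by 0.71 on the log2 scale (standard error 0.12, adjusted p = 4.59e-06, edgeR). POLD1, the catalytic subunit, was at 72.4 and 111 CPM in shCtrl and at 46.9 and 89.6 CPM in shPML. It differed more between experiments than between conditions, and its log2 fold change was -0.47 (95% interval -0.69 to -0.24, adjusted p = 0.000747, edgeR). POLD2, the subunit that holds the complex together, was at 143 and 162 CPM in shCtrl and at 138 and 163 CPM in shPML. Partner libraries were nearly equal, with a log2 fold change of -0.02 (95% interval -0.23 to 0.18, adjusted p = 0.894, edgeR). POLD4 (chr11:67350772-67356972), the smallest subunit, was the single replication gene that rose. It was at 4.08 and 1.94 CPM in shCtrl and at 9.5 and 4.4 CPM in shPML, from 70 to 681 counts per library, and it rose in each experiment, with log2 ratios of 1.22 and 1.18 (log2 fold change 1.20, standard error 0.26, adjusted p = 0.000147, edgeR). It was also the gene with the lowest TPM of the 48 in shCtrl, at 4.1. Of its exon bases 33.1% are shared with a same-strand gene, AP003419.1, which had 0 counts in all 4 libraries. The exon bases of AP003419.1 are themselves 100% shared with POLD4 and CLCF1. How the counting assigned reads in shared bases is not known, so the 0 does not show that POLD4 kept them. This limits the level given for POLD4.

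Polymerase epsilon, which copies the leading strand, held both the gene with the largest fall and a gene that hardly moved. POLE4 (chr2:74958492-74970128), a small histone-fold subunit, was at 55 and 44.8 CPM in shCtrl and at 14.6 and 9.71 CPM in shPML. The groups were far apart, and the fit put shPML at 24.2% of shCtrl (log2 fold change -2.05, standard error 0.13, adjusted p = 9.71e-20, edgeR). In this measure POLE4 was at rank 155 from the lowest of the 16516 genes tested, and MCM2, the next of the 48, at rank 709. No other annotated gene shares an exon with it in the count file. POLE3, with which POLE4 pairs through the histone fold and which also belongs to a chromatin remodelling complex, was at 53.7 and 53.1 CPM in shCtrl and at 55.9 and 45.8 CPM in shPML. Its log2 fold change was -0.07 (95% interval -0.31 to 0.16, adjusted p = 0.699, edgeR), and the intervals of the pair do not overlap. In TPM there were 1.8 and 1.48 POLE4 transcripts per POLE3 transcript in shCtrl and 0.459 and 0.373 in shPML. POLE2 and the catalytic subunit POLE fell by 0.93 and 0.59 on the log2 scale, and POLE4 lay beyond both, with an interval of -2.31 to -1.78.

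The clamp PCNA had the highest TPM of the 48 genes, 478 in shCtrl and 359 in shPML as group means. It was at 273 and 230.0 CPM in shCtrl and at 203 and 170.5 CPM in shPML, lower in both experiments to the same extent (log2 ratios -0.42 and -0.43), and its log2 fold change of -0.43 (95% interval -0.63 to -0.23, adjusted p = 0.000422, edgeR) was short of the limit. The clamp loader RFC was split between its small and large subunits. RFC5 (chr12:118016703-118032234) was at 31 and 32.2 CPM in shCtrl and at 14.7 and 13.7 CPM in shPML (log2 fold change -1.15, standard error 0.13, adjusted p = 1.62e-10, edgeR), and RFC3, RFC4 and RFC2 fell by 1.03, 0.72 and 0.63. RFC1, the large subunit particular to this loader, was at 68.6 and 65.4 CPM in shCtrl and at 62.8 and 53.4 CPM in shPML. Its log2 fold change was -0.21 (95% interval -0.44 to 0.02, adjusted p = 0.177, edgeR), and its interval does not overlap those of RFC5, RFC3 and RFC4.

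RPA, the trimer that coats single-stranded DNA, was the one group without a call. RPA1, the DNA-binding subunit, was at 144 and 139.7 CPM in shCtrl and at 111 and 95.4 CPM in shPML, and the fit gave -0.47 on the log2 scale (95% interval -0.68 to -0.26, adjusted p = 0.000279, edgeR). RPA2 was at 29.9 and 28.2 CPM in shCtrl and at 29.6 and 23.6 CPM in shPML. Its lower value came from experiment 2, with log2 ratios of -0.01 and -0.25 and a log2 fold change of -0.13 (95% interval -0.38 to 0.13). RPA3 was at -0.19 (95% interval -0.45 to 0.07). Falls of RPA2 or RPA3 beyond 0.45 on the log2 scale lie outside these intervals.

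Of the enzymes that join Okazaki fragments, FEN1 (chr11:61792911-61797238), the flap endonuclease, was at 208 and 210.1 CPM in shCtrl and at 111 and 96.5 CPM in shPML. It had the second highest TPM of the 48 genes in shCtrl (277) and dropped to 49.5% of shCtrl (log2 fold change -1.01, standard error 0.10, adjusted p = 2.98e-12, edgeR). DNA2, a nuclease and helicase, and RNASEH2A, the catalytic subunit of RNase H2, fell by 0.90 and 0.82 on the log2 scale. LIG1, the ligase that seals the fragments, was at 111 and 104 CPM in shCtrl and at 79.2 and 90 CPM in shPML. Its log2 ratio was -0.49 in experiment 1 and -0.21 in experiment 2, and its log2 fold change of -0.35 (95% interval -0.57 to -0.13, adjusted p = 0.00918, edgeR) was short of the limit. The intervals of FEN1 and LIG1 do not overlap.

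The genes that were not called thus form 2 sets. In 8 of the 16 (ORC5, MCM3, MCM5, MCM6, POLD1, PCNA, RPA1 and LIG1) the adjusted p was under 0.05 and the log2 fold change between -0.47 and -0.30. In the other 8 (ORC2, ORC3, ORC4, POLD2, POLE3, RFC1, RPA2 and RPA3) the adjusted p was 0.177 or more, and the log2 fold change was between -0.21 and 0.07. Of the 48 genes, 46 had a negative log2 fold change, and 44 had a negative log2 ratio in both experiments. Among all 16516 genes tested these numbers were 8201 and 6124. The ratio was the lower one in experiment 2 for 37 of the 48 and for 8318 of the 16516.

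A list of 31 further replication genes (checkpoint and fork protection factors, chromatin assembly, alternative clamp loaders and topoisomerases) behaved much like the 48 in number. In this list 20 genes fell and 0 rose, beside 10.5% and 8.57% of all genes tested. The median log2 fold change was -0.67, or -0.67 and -0.77 within experiments 1 and 2. WDHD1, which couples polymerase alpha to the helicase, was at 51.9 and 43.7 CPM in shCtrl and at 20.8 and 14.9 CPM in shPML and fell by 1.43 on the log2 scale. ASF1B, a histone chaperone, went from 86 and 82.9 CPM to 32.9 and 30.7 CPM (log2 fold change -1.41), and DSCC1, a subunit of an alternative clamp loader, from 17.1 and 22.4 CPM to 9.11 and 6.8 CPM (log2 fold change -1.28). ASF1B was also called without the block (adjusted p = 0.0484, edgeR), a fit in which 0.333% of all genes tested fell. At the other end, LRWD1, an ORC-associated protein, was at 27.6 and 40.6 CPM in shCtrl and at 33 and 53.8 CPM in shPML, and the fit gave 0.33 on the log2 scale (95% interval 0.09 to 0.57, adjusted p = 0.03, edgeR). SUPT16H, a subunit of the histone chaperone FACT, and HELB, a DNA helicase, were at -0.06 and -0.14, and neither was called (adjusted p = 0.729 and 0.668, edgeR).

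Exons of 17 of the 48 genes are shared with another annotated gene, on the same strand in 5 and on the opposite strand in 13, and more than 20% of the exon bases are shared in 5 (MCM2, GINS4, POLA2, PRIM1 and POLD4). The strand setting of the counting is not given in the sources used here, so that reads of opposite-strand partners cannot be told apart. Pseudogenes carrying the symbol of 7 of the 48 genes were in the counts, none above 0.111 CPM.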

How the data were processed

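RNA of RCC4 cells was measured in 4 libraries, 2 shCtrl and 2 shPML. The authors deposited raw counts per gene, whole numbers without normalization. According to the methods and the submitters' processing notes, single-end reads of stranded mRNA libraries went through Trimmomatic 0.39, STAR (GRCh38) and featureCounts 1.6.4 with a Gencode release of unstated number. Of the columns, 2 carry no replicate number and were taken as replicate 1, since their partners are numbered 2. A note in the series record says that 2 samples, shPML replicate 1 and shCtrl replicate 2, first carried each other's labels. Groups follow the present labels, and PML was lower in each shPML column than in its partner.

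The software was edgeR 4.0.16 in R 4.3.3 (filterByExpr, TMM, quasi-likelihood test with Benjamini-Hochberg adjustment over 16516 genes), DESeq2 1.42.0, pandas 2.3.3 and matplotlib 3.10.9 in Python 3.11.15. The fit held the replicate number as a block. The methods name 2 experiments with independent infections but do not state a block. It was chosen because the 48 genes were to be compared within each replicate, and with it known from an earlier analysis that edgeR calls few genes without the block. Across genes, which are not independent, the replicate 1 libraries deviated together from their group means (r = 0.546). P-values measure the spread between these libraries only. The smallest two-sided p of an exact permutation test is 0.333 for 2 libraries a group, and none was used. Standard errors are the log2 fold change over the square root of F, and 95% intervals use the degrees of freedom of the test. Depth covers counting error only.

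The TPM values use the gene lengths in the deposited file. The 48 genes, the wider list and the rule for named genes (the lowest and highest change of each complex, positive or sign-changing genes, and the 3 lowest and 3 highest of the wider list) were chosen with earlier results of these data known. Promoter words were counted in RefSeq windows of 300 bases. The fits were tested on simulated counts. Alternatives were no block, DESeq2, RLE factors, library totals, other filters and thresholds, and each library left out. The study's own fold changes were not used. A cell type marker of the planned list is not reported here.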

Additional observations from a re-analysis of the deposited data

Results flagged for a closer look

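Markers of another cell type were present in the shPML library of experiment 2, in data outside the comparison of the replication genes. CD14 was at 42.8 CPM, PTPRC at 12.6 CPM and PECAM1 at 4.11 CPM there, against at most 0.111, 0.0976 and 0.0418 CPM in the other libraries. These values rest on 1177, 346 and 113 counts. Of the 3 leukocyte markers CD3E was at 0 in every library. The other endothelial markers, CDH5 and VWF, were at 0 and 0.255 CPM in the shPML library of experiment 2. In experiment 1, which does not hold that library, the 48 genes had a median log2 ratio of -0.63. There 30 of the 48 were below -0.5, as were 2981 of all 16516 genes tested. Experiment 1 has 1 library per group, and the part of the marker transcripts in experiment 2 was not tested.

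The log2 ratios of 2 genes had opposite signs in the experiments. POLD2 was at -0.05 in experiment 1 and 0.0042 in experiment 2, and POLE3 at 0.06 and -0.21. The difference between experiments was not tested, since each experiment has 1 library per group.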

How the results depend on the processing

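With no replicate block in edgeR, 0 of the 48 genes were called lower and 0 higher, beside 31 and 1 with it, while the median log2 fold change was -0.70. DESeq2 with no replicate block called 0 higher, a count that was not made over all genes tested. When calls required a log2 change beyond 1, 9 genes were called lower. The last of these, GINS3 (-1.01), was at rank 1022 from the lowest log2 fold change among the 16516 genes tested. Calls at this limit were not counted over all genes tested. Leaving out 1 library at a time with the replicate block kept gave values without a test, with a median between -0.75 and -0.63. Leaving out 1 library with no replicate block left a group with a lone library, which was assumed to vary like the other group. The medians then ran from -0.78 to -0.61, the lowest without shPML replicate 1 and the highest without shPML replicate 2. Reversed signs came from genes that were not called: POLD2 with library totals only (0.00) and without shPML replicate 1 or shCtrl replicate 2 and no block (0.08 and 0.06), and, without shPML replicate 2 and no block, POLE3 (0.07), RPA2 (0.03) and RPA3 (0.07, and 0.13 without shCtrl replicate 1). With the block kept, POLE3 was at 0.06 without shCtrl replicate 2 and also without shPML replicate 2, the sign of its ratio in experiment 1. The cause of these signs was not tested. With RLE factors, library totals, no filter or at least 10 counts in every library, 30 of the 48 genes were called lower and 1 higher. CDC7 was the call lost, and calls over all genes tested were not counted in these fits. The median log2 fold change of the 48 genes was -0.70 to -0.68 there, beside 0.02 to 0.05 over all genes tested. Depth limits POLD4, POLA2 and PRIM1, the genes with the lowest counts.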
